A study of Mus musculus with 6 samples.

Results

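The genes described here are those of the fibroblast growth factor (FGF) and epidermal growth factor (EGF) families and of the feedback they set off, chosen by gene symbol: FGF ligands and receptors, EGF-like ligands, neuregulins and ERBB receptors, the sprouty and spred inhibitors, Errfi1, Lrig1, the PEA3 factors Etv1, Etv4 and Etv5, and the dual-specificity phosphatases. Of 83 probes with such a symbol, 79 probes of 72 genes had a value on at least 3 of the 6 arrays in the authors' processed table, out of 23473 probes on the array and 19321 genes named on it. The probes of Fgf4, Fgf11, Nrg3 and Dusp21 had a value on 1 array each and were left out, while those of Fgf3 and Fgf2os, with values on 4 arrays, were the nearest to the limit among those kept. Fgf2os, an antisense transcript, and Fgfr1op2, a partner gene of FGFR1 in fusions, match by symbol and belong to no arm of the pathway.

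The cells were cultured astrocytes from the cortex of newborn (P0) C57BL/6J mice that carried floxed alleles of Chd7, a chromatin remodeller, on both chromosomes. One group of 3 samples received a control lentivirus and the other group of 3 samples a lentivirus carrying the recombinase Cre, and RNA was taken 3 days after infection. Both groups grew in medium with 10% serum, B-27 supplement and added FGF2 and EGF, so that the pathway was supplied with ligand in every culture. The labels name neither the promoter that drove Cre nor the share of cells it reached, and no sample lacked the added factors. Cre was present only in the cultures in which Chd7 was targeted, so that an effect of Cre itself and an effect of losing Chd7 cannot be told apart.

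FGFs outside the cell bind receptor tyrosine kinases of the FGFR family, and EGF-like ligands bind those of the ERBB family. Both pass the signal through adaptors, RAS and a kinase relay that ends in ERK. Active ERK turns on genes whose products damp the same relay: sprouty and spred proteins act between receptor and RAF, MAP kinase phosphatases remove phosphate from ERK, p38 and JNK, Errfi1 blocks the EGFR kinase, and Lrig1 promotes receptor turnover. In cortical glia FGF2 and EGF are the standard growth factors of progenitor and astrocyte cultures, and Fgfr3 and Fgfr2 are known from the astrocyte lineage.

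The data are 1-colour array intensities, given below as normalised log2 intensity. The offset used in the background correction sets a floor near 5.64 log2 units, so that differences of dim probes are understated. Between 82.8 and 90.7% of all probes lay above background on an array, with fewer on each Cre array (82.8 to 87.0%) than on any control array (87.4 to 90.7%). The brighter Chd7 probe read 6.92, 7.49 and 6.95 in control and 6.00, 5.97 and 6.01 in Cre cultures, a difference of -1.13 (SE 0.16, n = 3 per group) with a limma adjusted p of 0.405 and an exact permutation p of 0.1, the smallest that 3 arrays against 3 allow. The dimmer Chd7 probe stood at -0.11 (SE 0.06). All 18 listed astrocyte markers were measured, none of them at 0, with Aqp4, Aldh1l1 and Gfap above background on every array.

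All but 1 of the 79 probes lay above background on at least 3 arrays and were tested, the exception being Fgf2os. Of the 79, 69 were above background on all 6 arrays. In the fit across all 20540 probes tested, 0 probes (0%) and 0 of the 78 tested FGF and EGF probes passed an adjusted p of 0.05 in limma. At an unadjusted p under 0.05 stood 9 of the 78 probes (11.5%), against 5.61% of all probes. Of these, 7 were higher in Cre cultures (2.77% of all probes) and 2 lower (2.85% of all probes). The smallest adjusted p among them was 0.578. The median difference was 0.01 over the 78 probes and 0 over all probes, with 42 probes on the higher side of 0 and 36 on the lower, where 49.6% of all probes lay on the higher side. Without overlap between the groups were 13 probes (16.7%), against 10.5% of all probes: 9 of them higher in Cre cultures (5.22% of all probes) and 4 lower (5.31% of all probes).

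The count of 9 depended on single arrays and on the processing. It was 4 (5.13%, against 4.68% of all probes) without Cre replicate 3, and 5 (6.41%) without Cre replicate 1, Cre replicate 2 or control replicate 3, against 4.14, 5.47 and 6.56% of all probes. It was 7 (8.97%, against 6.71%) without control replicate 2. In the authors' processed values it was 6 (7.69%, against 9.1% of all probes), a smaller share than over all probes. With the replicate block it was 16 (20.5%, against 9.34% of all probes), again with 0 past the adjusted threshold. With the block 6 of the 9 genes stayed under an unadjusted limma p of 0.05 (Fgfr2, Fgfr3, Spry2, Dusp10, Dusp22 and Fgf13), and Dusp4 (0.0511), Dusp14 (0.0569) and Nrg2 (0.06) did not. The 10 that came in were Fgf1, Hbegf, Btc, Dusp2, Dusp3, Dusp9, Dusp13, Dusp18, Dusp23 and Fgfr1op2.

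**Figure D1:**
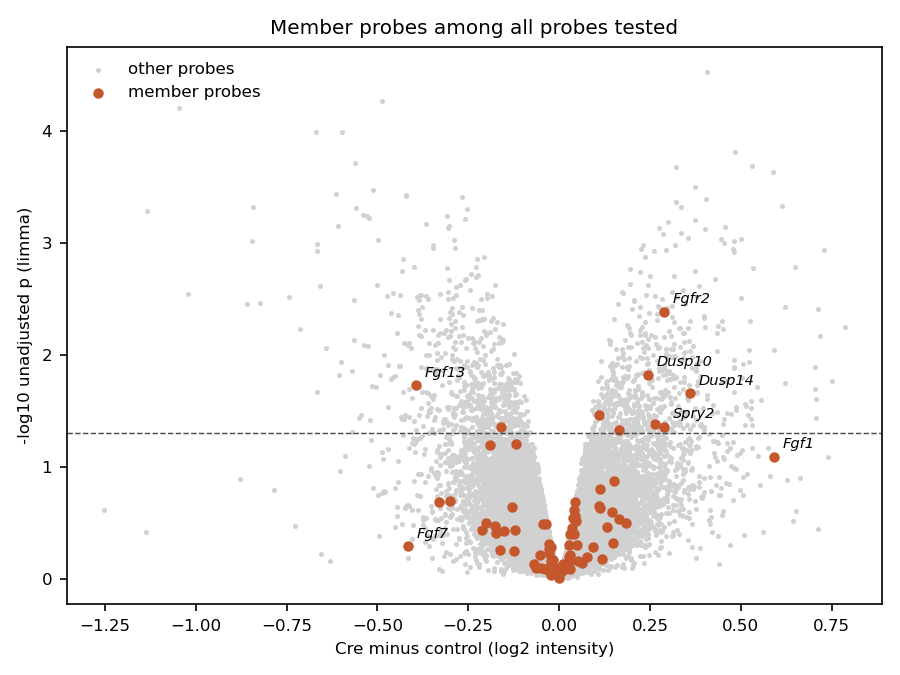
Each point is 1 of the 20540 probes tested, placed by the difference between Cre and control means in log2 intensity (horizontal) and by minus log10 of the unadjusted limma p (vertical); orange points are the 78 FGF and EGF probes and the dashed line marks an unadjusted p of 0.05. The 9 orange points above the line lie inside the cloud of all probes, with Fgfr2 at 0.29 the highest of them.

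Among the 5 FGF receptor genes, 4 had a higher mean in Cre cultures (49.6% of all probes did) and 1 a lower one, with a median difference of 0.16, and 2 stood at an unadjusted p under 0.05 (5.61% of all probes). Fgfr2, a receptor whose splice forms differ between epithelium and mesenchyme, read 7.13, 7.16 and 7.25 in control and 7.51, 7.36 and 7.53 in Cre cultures. Every Cre array lay above every control array. The difference was 0.29 (SE 0.06, 95% interval 0.13 to 0.44), with a limma p of 0.00411, the smallest of the 71 genes, that did not hold after adjustment over all probes (adjusted p = 0.578). It was higher in 3 of 3 same-numbered pairs, by 0.38, 0.20 and 0.28. In the authors' processed values Fgfr2 read 53, 62 and 63 units in control and 78, 58 and 79 units in Cre cultures. There the groups overlapped, with Cre replicate 2 below control replicates 2 and 3, and the Cre mean was 121% of the control mean. The log2 difference was 0.26 in those values, 0.12 with the local background column and 0.42 with plain subtraction of the blank spots.

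Fgfr3, a receptor long used as a marker of radial glia and astrocytes, is a dim probe on this array. It read 5.89, 5.86 and 6.07 in control and 6.33, 6.03 and 6.26 in Cre cultures, with control replicate 3 just above Cre replicate 2. The difference was 0.26 (SE 0.10, 95% interval 0.01 to 0.51, limma adjusted p = 0.858), and it was higher in all 3 pairs, by 0.43, 0.17 and 0.19. In the authors' processed values, which have no offset, the Fgfr3 probe read 6, 5 and 11 units in control and 18, 8 and 15 units in Cre cultures, or 186% of the control mean. With plain subtraction of the blank spots the difference of Fgfr3 was 1.08 on the log2 scale.

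The sequences just before the annotated starts of these 2 receptor genes are shown because theirs were the FGF receptors at an unadjusted p under 0.05. Each is 250 bases from RefSeq (GRCm38.p6), 5′ to 3′ on the gene's strand, ending at the base before the start: chr7:130266809-130267058 on the minus strand for Fgfr2, and chr5:33721474-33721723 on the plus strand for the first of 2 listed starts of Fgfr3. Capitals mark the GC box GGGCGG, searched on both strands, so that it can read CCGCCC; the ETS core CCGGAAG and the E-box CACGTG were searched the same way and were in neither window.
Fgfr2: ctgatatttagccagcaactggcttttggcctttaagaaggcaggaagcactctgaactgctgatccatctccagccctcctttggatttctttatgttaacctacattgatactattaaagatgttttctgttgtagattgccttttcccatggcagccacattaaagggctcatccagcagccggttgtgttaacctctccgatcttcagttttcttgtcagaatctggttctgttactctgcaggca
Fgfr3: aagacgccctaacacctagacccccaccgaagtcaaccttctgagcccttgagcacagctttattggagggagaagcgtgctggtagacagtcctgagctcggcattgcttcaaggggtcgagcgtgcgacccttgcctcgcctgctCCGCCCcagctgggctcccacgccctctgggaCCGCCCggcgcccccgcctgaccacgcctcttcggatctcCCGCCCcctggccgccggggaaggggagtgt
The Fgfr3 window holds 3 GC boxes and the Fgfr2 window 0. A GC box was found in 57.4% of the 68 windows of 53 matched FGF and EGF genes and in 32.7% of all 32851 windows of this length in the table. The ETS core, the letters that PEA3 factors and their relatives recognise, was in 5.88% of the 68 windows and 6.91% of all, and the E-box in 5.88 and 6.02%. A match is a description of letters, and the series holds no binding data.

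Fgfr1, the main receptor for FGF2 in many cell types, read 8.32, 9.07 and 8.08 in control and 8.40, 8.42 and 8.16 in Cre cultures. Control replicate 2 alone lay 0.65 above the next array, and the other 5 arrays overlapped. On that array the summed level of 13 measured oligodendrocyte lineage markers was the highest of the 6, at 3361 units, of which Olig1 made up 2259, and so was that of 12 neuron markers, at 657 units. The summed levels of the adaptor, co-receptor and response gene lists given below were also highest there, at 2917, 3423 and 15089 units. The mean deviation of the oligodendrocyte list was 0.09 on control replicate 2 and 0.06 on Cre replicate 1. That of the neuron list was -0.03 on control replicate 2 and highest, at 0.08, on Cre replicate 1. The part of any of these lists in the value of Fgfr1 was not tested. The difference was -0.16 (SE 0.26, interval -0.82 to 0.49), and without control replicate 2 it was 0.13. Fgfrl1, a receptor without a kinase domain, stood at 0.16 (SE 0.14), and Fgfr4, near the floor, at 0.04 (SE 0.03).

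Beside these receptors, listed astrocyte markers also tended to a higher mean in Cre cultures: 15 of 18 had a higher mean (49.6% of all probes did), 4 (22.2%, against 5.61% of all probes) stood at an unadjusted p under 0.05, and the median difference was 0.20. Their summed level in the authors' values overlapped between the groups, at 62483 to 70781 units in control and 66005 to 69165 units in Cre cultures. Aldh1l1, an enzyme of folate metabolism found in astrocytes, read 9.26, 9.34 and 9.67 in control and 10.23, 9.83 and 10.36 in Cre cultures. The order of the Cre arrays differed between the receptors and the list: Cre replicate 2 was the lowest of them for Fgfr2, Fgfr3 and Aldh1l1, but the mean deviation of the 18 markers was -0.03, 0.15 and 0.14 on Cre replicates 1, 2 and 3. Microglia markers had a lower mean in 12 of 16 genes, and 7 (43.8%) stood at an unadjusted p under 0.05, 6 of them lower and 1, Cd68, higher at 0.48 (SE 0.08). Their summed level was 458 to 525 units in control and 326 to 435 units in Cre cultures. Of 12 neuron markers 4 (33.3%) stood at that level, with Neurod1 at 0.46, Nefm at 0.39 and Nefl at 0.16 higher and Stmn2 at -0.34 lower, and summed levels of 484 to 657 units in control and 435 to 551 units in Cre cultures overlapped. In bulk RNA a change in the share of a cell type and a change in RNA per cell cannot be told apart, and the part of these cell types in the receptor values was not tested.

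**Figure D2:**
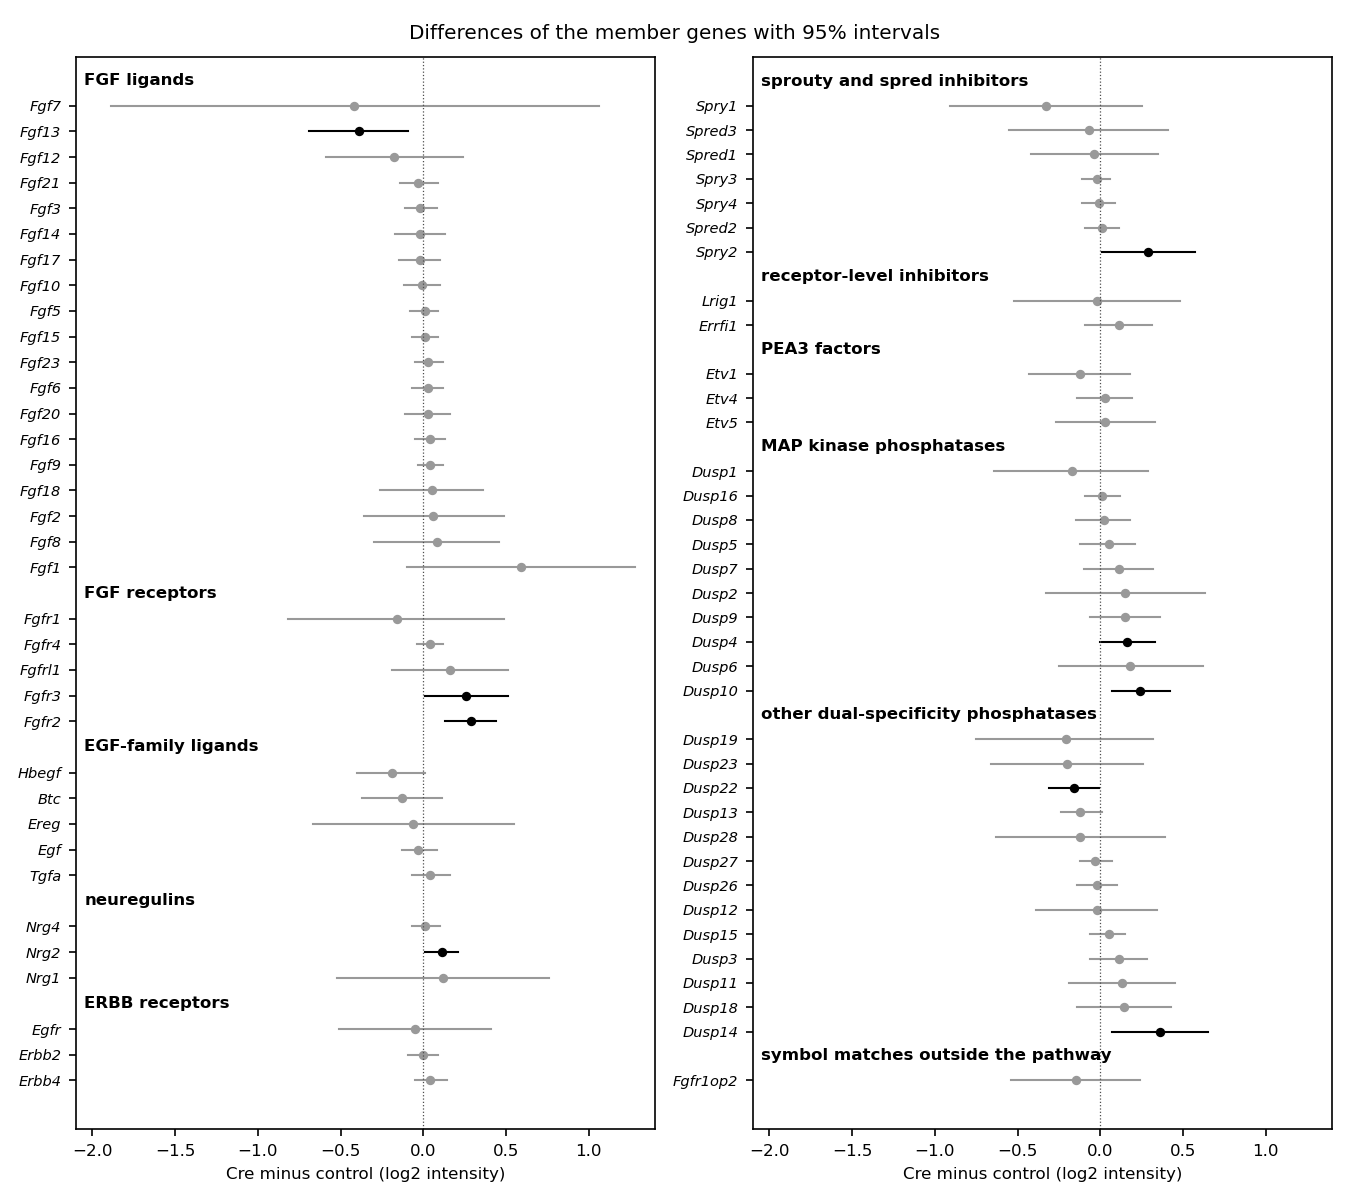
Difference between Cre and control means in log2 intensity (points) with 95% limma intervals (lines) for the brightest probe of each of the 71 tested genes, grouped by role; black marks an unadjusted p under 0.05 and grey all others. Intervals of the 9 black genes clear 0, and the widest intervals belong to Fgf7, Fgf1 and Fgfr1.

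Among the ERBB receptors, Egfr, the receptor of the added EGF, read 8.34, 8.13 and 7.73 in control and 8.26, 7.92 and 7.87 in Cre cultures with its brighter probe. The groups overlapped fully, at a difference of -0.05 (SE 0.18, interval -0.51 to 0.41), and the second probe read 0.09 (SE 0.13). Erbb2, the partner receptor without a ligand of its own, lay near the floor at 5.74 in both groups (interval of the difference -0.09 to 0.09). Erbb4 stood at 0.04 (SE 0.04) with its brighter probe, and its dimmer probe was above background on all 3 control arrays and on 0 Cre arrays, at 5.73 and 5.70, too close to the floor for a fold.

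EGF-like ligands had 4 of 5 means lower in Cre cultures, where 49.6% of all probes had a higher mean. At an unadjusted limma p under 0.05 stood 0 of 5 (5.61% of all probes). With the replicate block 2 did, Hbegf and Btc (9.34% of all probes). Hbegf, a heparin-binding ligand of EGFR that is shed from the cell surface, read 11.37, 11.42 and 11.20 in control and 11.26, 11.10 and 11.06 in Cre cultures. Cre replicate 1 overlapped the lowest control array, and each Cre array was below its same-numbered control, by -0.11, -0.32 and -0.14. The difference was -0.19 (SE 0.08, interval -0.40 to 0.01, limma adjusted p = 0.927). With the local background column it was -2.16.

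Ereg, a ligand induced by growth factors, read 7.29, 6.66 and 6.76 in control and 7.27, 6.66 and 6.60 in Cre cultures, so that replicate 1 was high in both groups and the difference was -0.06 (SE 0.25). Btc, betacellulin, stood at -0.13 (SE 0.10) and was lower in all 3 pairs. Egf itself was at -0.03 (SE 0.04) and Tgfa at 0.04 (SE 0.05), both near the floor. The neuregulins, ligands of ERBB3 and ERBB4, all had higher means. Nrg2, a dim probe, read 5.82, 5.86 and 5.87 in control and 5.98, 5.91 and 5.99 in Cre cultures without overlap, a difference of 0.11 (SE 0.04, adjusted p = 0.832). Nrg1 ranged more between replicate numbers (7.17, 7.66 and 7.95 in control) than between the groups (0.12, SE 0.26), and Nrg4 stood at 0.01 (SE 0.03).

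The FGF ligand genes held both the largest positive and the largest negative difference of the whole set. Fgf1, a ligand of all FGF receptors without a signal peptide, read 8.27, 9.11 and 8.25 in control and 9.19, 9.39 and 8.83 in Cre cultures. Control replicate 2 lay above Cre replicate 3, and the other 2 controls below every Cre array. The difference was 0.59 (SE 0.28, interval -0.10 to 1.28), higher in 3 of 3 pairs by 0.92, 0.27 and 0.58, with a limma adjusted p of 0.938, or 0.421 with the replicate block. Without control replicate 2 it was 0.88, and with the local background column -0.20.

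Fgf13 belongs to the FGF homologous factors, which stay inside the cell and bind sodium channels rather than FGF receptors. Its brighter probe read 7.36, 7.68 and 7.24 in control and 7.02, 6.97 and 7.12 in Cre cultures. All Cre arrays lay below all control arrays, by -0.35, -0.71 and -0.12 in the pairs. The difference was -0.39 (SE 0.12, interval -0.69 to -0.09, limma adjusted p = 0.747), and the second probe, close to the floor, read -0.04 (SE 0.04). The other members of that subfamily stood at -0.18 (Fgf12, SE 0.17) and -0.02 (Fgf14, SE 0.06), so that only the Fgf13 probe stood at an unadjusted p under 0.05 among the 3 genes measured; the difference between them was not tested.

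Fgf2, whose protein was also added to the medium, read 6.59, 6.11 and 6.34 in control and 6.67, 6.16 and 6.41 in Cre cultures. Each Cre array sat just above its same-numbered control, by 0.07, 0.05 and 0.07, while the replicate numbers differed by 0.49. Fgf8, a patterning ligand of the developing forebrain, stood at 0.08 (SE 0.15) and Fgf18 at 0.05 (SE 0.12). Fgf17, of the same subfamily, was at -0.02 (SE 0.05). Of the 19 FGF family genes tested, Fgf12, Fgf13 and Fgf14 among them, 11 had a higher and 8 a lower mean and the median was 0.01. Fgf5, Fgf6, Fgf15, Fgf16, Fgf20, Fgf21 and Fgf23 lay near the floor with differences of -0.03 to 0.04, as did Fgf3, Fgf9 and Fgf10, each above background on 3 to 5 arrays.

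Fgf7, a ligand made by mesenchymal cells that signals through an epithelial form of FGFR2, varied most between replicates. It read 8.37, 6.30 and 7.21 in control and 7.49, 6.22 and 6.93 in Cre cultures. Replicate 1 was highest and replicate 2 lowest in both groups, and the means of the replicate numbers spanned 1.67, against a group difference of -0.42 (SE 0.59, interval -1.89 to 1.06). Of 12 listed markers of fibroblasts and mural cells, 3 had that order in both groups, the fibrillar collagen genes Col1a1, Col1a2 and Col3a1. Col1a2 read 9.92, 7.29 and 8.64 in control and 9.45, 6.94 and 8.92 in Cre cultures, and Col3a1 9.34, 6.67 and 8.27, then 8.72, 6.39 and 7.92. The other 9 did not have it in both. Dcn had it in control (7.23, 5.95 and 7.22) and narrowly not in Cre cultures (6.87, 5.86 and 6.88), and Twist1 had it in Cre cultures only. Lum, a small matrix proteoglycan, was highest in replicate 3 and lowest in replicate 2 of both groups. The contractile gene Acta2 was lowest in replicate 3 of both groups. The mean deviation of the 12 was 0.42, -0.36 and 0.05 on the control arrays and 0.30, -0.46 and 0.05 on the Cre arrays, and their summed level, mostly that of Acta2, was 10722, 9042 and 6440 units in control and 9387, 5877 and 6507 units in Cre cultures. Their part in the Fgf7 values was not tested.

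**Figure D3:**
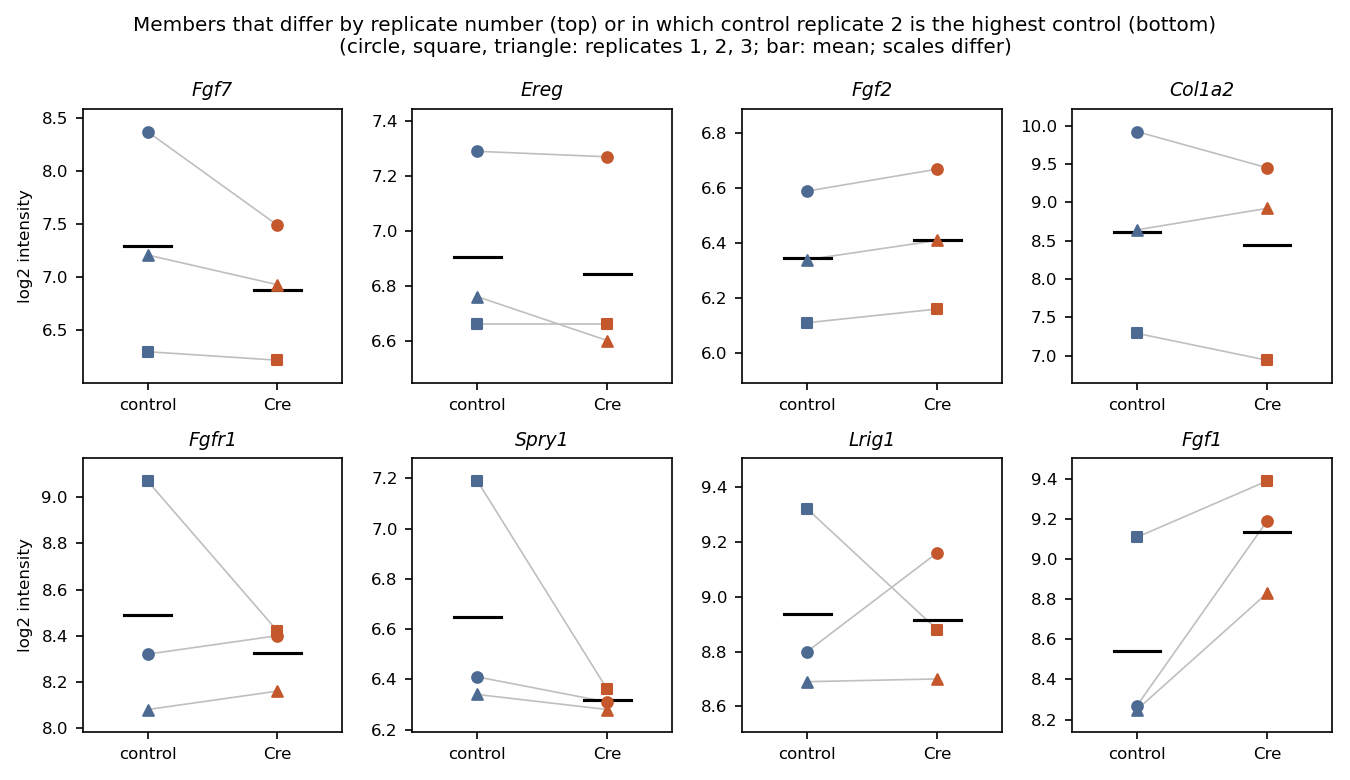
Log2 intensity on each array for 8 genes, with circles, squares and triangles for replicates 1, 2 and 3, lines joining same-numbered arrays and bars for group means; vertical scales differ. In the top row Fgf7, Ereg, Fgf2 and the fibroblast gene Col1a2 differ by replicate number in both groups, and in the bottom row control replicate 2 is the highest control array for Fgfr1, Spry1, Lrig1 and Fgf1.

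Across the set, the means of the 3 replicate numbers spanned more than the group difference for 59 of the 78 probes (75.6%), against 79.9% of all probes. The sign was the same in all 3 pairs for 36 of the 78 (46.2%), against 30.1% of all probes. A single array lay more than 0.5 log2 units above the other 5 for 4 of 77 complete probes (5.19%), against 1.07% of all probes. Besides Fgf7 on control replicate 1, these were Spry1, Fgfr1 and the second Spred1 probe, all on control replicate 2. The array that stood out most often among all probes was the same one, with 149 of 220.

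Of the sprouty and spred genes, 2 of 7 had a higher mean in Cre cultures and 5 a lower one. Spry2, an inhibitor of the FGF relay induced by ERK, read 6.75, 6.54 and 6.77 in control and 6.78, 7.01 and 7.14 in Cre cultures. The groups did not overlap, with Cre replicate 1 next to the highest control array, and the pairs differed by 0.03, 0.47 and 0.37. The difference was 0.29 (SE 0.11, interval 0.01 to 0.57, limma adjusted p = 0.858), and it stood at an unadjusted p under 0.05 in 1 of 6 fits with an array left out.

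Spry1, its close relative, had a lower mean in Cre cultures, at -0.33 (SE 0.23, interval -0.91 to 0.25). It read 6.41, 7.19 and 6.34 in control and 6.31, 6.36 and 6.28 in Cre cultures, so that the difference came mostly from control replicate 2, without which it was -0.06. Spry3 stood at -0.02 (SE 0.03) and Spry4 at -0.01 (SE 0.04). Spred1 read 7.87, 7.49 and 7.93 in control and 7.85, 7.50 and 7.84 in Cre cultures with its brighter probe (-0.04, SE 0.16). The second Spred1 probe was high on control replicate 2 alone (8.25, against 7.45 to 7.57 on the others) and stood at -0.30 (SE 0.21). Spred2, near the floor, was at 0.01 (SE 0.04), and Spred3 at -0.07 (SE 0.19).

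The inhibitors that act on the receptors themselves did not separate the groups. Errfi1 read 7.66, 7.37 and 7.51 in control and 7.68, 7.58 and 7.62 in Cre cultures, higher by 0.01, 0.21 and 0.11 in the pairs and by 0.11 on average (SE 0.08, interval -0.09 to 0.31). Lrig1 stood at -0.02 (SE 0.20, interval -0.52 to 0.48), with pairs of 0.37, -0.44 and 0.00. The PEA3 factors, ETS transcription factors whose levels track FGF signalling in many embryonic tissues, gave 0.03 for Etv4 (SE 0.07, interval -0.14 to 0.19), 0.03 for Etv5 (SE 0.12, interval -0.27 to 0.33) and -0.12 for the brighter Etv1 probe (SE 0.12). Etv5 read 7.52, 7.29 and 7.29 in control and 7.46, 7.56 and 7.18 in Cre cultures, with all control arrays inside the range of the Cre arrays.

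The MAP kinase phosphatases had 9 of 10 means higher in Cre cultures (49.6% of all probes), with a median of 0.13, and 2 of the 10 at an unadjusted p under 0.05 (20%, against 5.61% of all probes). Dusp10, which acts on p38 and JNK, read 7.03, 6.84 and 7.04 in control and 7.17, 7.18 and 7.30 in Cre cultures. No Cre array overlapped a control array, and the pairs differed by 0.13, 0.34 and 0.26. The difference was 0.24 (SE 0.07, interval 0.07 to 0.42, limma adjusted p = 0.727), and it stood at an unadjusted p under 0.05 in all 6 fits with an array left out, as did Fgfr2. The other 7 of the 9 genes did so in 1 to 4 of the 6 fits. Other processing changed this: in the authors' values the unadjusted limma p was 0.137 for Dusp10 and 0.156 for Fgfr2. With the local background column it was 0.00405 and 0.267. Of the 9 genes, only Fgf13 (0.0228) and Dusp22 (0.0352), both lower in Cre cultures, stood under 0.05 in the authors' values. The median of all probes was -0.16 there.

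Dusp4, a nuclear phosphatase induced by ERK, read 7.51, 7.32 and 7.45 in control and 7.54, 7.56 and 7.68 in Cre cultures, a difference of 0.16 (SE 0.06, adjusted p = 0.881). The groups did not overlap, with Cre replicate 1 next to control replicate 1, and with the local background column in place of the blank spots the sign turned (-0.13). Dusp6, the cytoplasmic ERK phosphatase that serves as a standard readout of FGF signalling, was marked by the scanner on control replicate 1 and has no value there. It read 10.34 and 10.41 on the other control arrays and 10.86, 10.36 and 10.46 in Cre cultures, a difference of 0.18 (SE 0.16, interval -0.25 to 0.62, 2 control and 3 Cre arrays). The authors' values gave -0.07 and the local background column 1.32. In the pairs with both values it stood at 0.02 and 0.05.

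Dusp5, another nuclear phosphatase specific for ERK, read 7.86, 7.80 and 7.79 in control and 7.98, 7.76 and 7.85 in Cre cultures, with overlap and a difference of 0.05 (SE 0.07, interval -0.12 to 0.21). Dusp9 stood at 0.15 (SE 0.09), Dusp2 at 0.15 (SE 0.19), Dusp7 at 0.11 (SE 0.08) and Dusp16 at 0.01 (SE 0.04). Dusp2 and Dusp9 were higher in all 3 pairs. Dusp1, an early response gene, was the only one of the 10 with a lower mean (-0.17, SE 0.19). Dusp8 read 0.02 (SE 0.07) with the brighter probe.

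**Figure D4:**
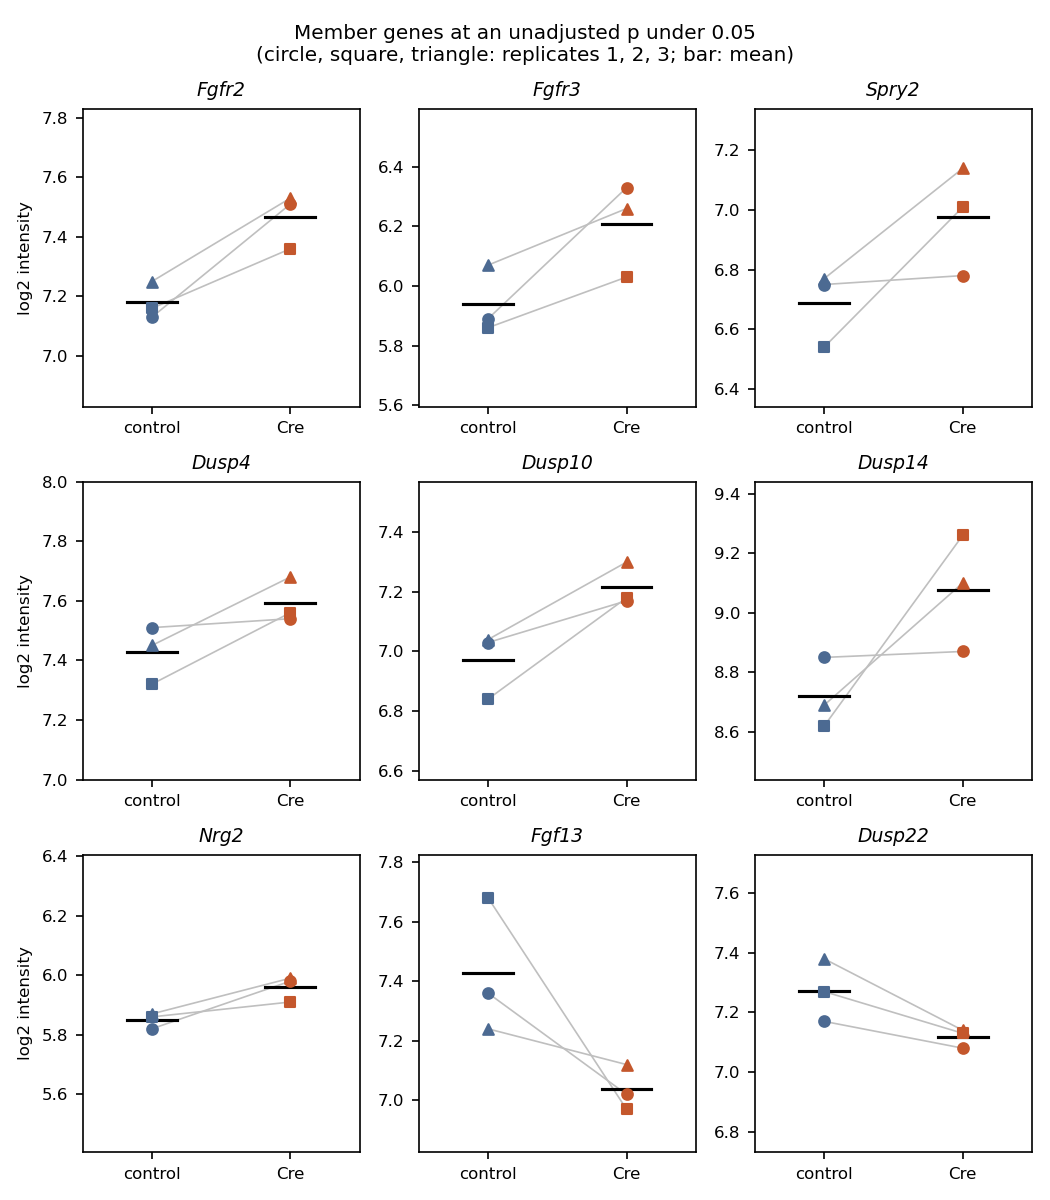
Log2 intensity on each array for the 9 genes at an unadjusted p under 0.05, with circles, squares and triangles for replicates 1, 2 and 3, lines joining same-numbered arrays and bars for group means; vertical scales differ. Fgfr2, Spry2, Dusp4, Dusp10, Dusp14 and Nrg2 are higher in all Cre arrays than in any control array, Fgf13 and Dusp22 are lower, and Fgfr3 overlaps. The line of replicate 1 is nearly flat for Spry2, Dusp4 and Dusp14.

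The other dual-specificity phosphatases, small enzymes with varied substrates, had 5 of 13 means higher and 8 lower (49.6% of all probes were higher). At an unadjusted limma p under 0.05 stood 2 of the 13 (15.4%, against 5.61% of all probes). Dusp14, a small phosphatase that can act on MAP kinases, read 8.85, 8.62 and 8.69 in control and 8.87, 9.26 and 9.10 in Cre cultures, without overlap. The difference was 0.36 (SE 0.11, interval 0.07 to 0.65, limma adjusted p = 0.769), with pairs of 0.02, 0.64 and 0.41. Dusp22, linked to JNK signalling, read 7.17, 7.27 and 7.38 in control and 7.08, 7.13 and 7.14 in Cre cultures, lower by -0.09, -0.15 and -0.24 in the pairs and by -0.16 on average (SE 0.06, adjusted p = 0.859), where the local background column gave 0.26. Dusp13 (-0.12, SE 0.05), Dusp23 (-0.20, SE 0.18), Dusp18 (0.14, SE 0.11) and Dusp3 (0.11, SE 0.07) were among the 9 of 13 genes with 1 sign in all pairs (69.2%, against 30.1% of all probes). The rest of the 13 ranged from -0.21 (Dusp19, SE 0.22) to 0.13 (Dusp11, which acts on RNA, SE 0.13). Fgfr1op2 stood at -0.15 (SE 0.16).

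Of the 7 genes with 2 probes, 5 had probes of opposite sign: Egfr, Erbb4, Dusp8, Dusp13 and Etv1. In none of the 7 did both probes stand at an unadjusted p under 0.05.

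Other genes of the pathway were taken from 3 lists. Of 20 measured genes of the adaptors and kinase relay, 0 passed over all probes and 1 (5%, against 5.61% of all probes) stood at an unadjusted p under 0.05, on the lower side: Rasa1, which switches RAS off, read 8.95, 8.98 and 8.68 in control and 8.57, 8.44 and 8.45 in Cre cultures, a difference of -0.39 (SE 0.09, limma adjusted p = 0.623). The groups did not overlap. The median of the list was -0.04, and 2 (10%, against 9.34% of all probes) stood at that level with the replicate block.

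Of 19 measured co-receptors, modulators and shedding enzymes, 0 passed. At an unadjusted p under 0.05 stood 3 (15.8%, against 5.61% of all probes), all higher. These were the FGF carrier Fgfbp3 at 0.35 (SE 0.12), the sheddase Adam17 at 0.35 (SE 0.12) and Rhbdf1 at 0.28 (SE 0.11). Adam17 releases HB-EGF and other EGFR ligands, and Rhbdf1 is a partner of that enzyme. With the replicate block 1 (5.26%, against 9.34% of all probes) stood at that level. The median was 0.01. Adam17 read 7.96, 7.77 and 8.18 in control and 8.42, 8.36 and 8.20 in Cre cultures, with Cre replicate 3 next to control replicate 3.

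Of 25 measured growth factor response genes, 0 passed and 2 (8%, against 5.61% of all probes) stood at an unadjusted p under 0.05, both higher: Fos at 0.26 (SE 0.09) and Maff at 0.21 (SE 0.08). Fos, an early target of ERK, read 7.49, 7.47 and 7.29 in control and 7.85, 7.62 and 7.57 in Cre cultures. Egr1, another early target named after its value was seen, read 8.49, 7.86 and 7.99 in control and 8.35, 7.42 and 7.54 in Cre cultures, a difference of -0.34 (SE 0.30) that was lower in all pairs. The median of the list was 0, with 10 means higher and 15 lower, and with the replicate block 5 (20%, against 9.34% of all probes) stood at that level, 3 higher and 2 lower.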

How the data were processed

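Total RNA of 6 samples was amplified, coupled to Cy5 and hybridised to 1-colour arrays (labels' protocols). Scanner files deposited by the authors give a median spot intensity and a local background intensity, per the file headers; every column of the authors' processed intensity table has a median of 25, and its scaling is not stated in the labels or headers. Symbols come from the platform annotation, with 20556 of 20690 named probes matched to RefSeq (GRCm38.p6) by Entrez identifier; 2783 probes are unnamed here.

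Spot intensities were corrected by normexp against 2736 blank spots (offset 50), log2 transformed and quantile normalised. Spots marked by the scanner (0 to 9 per array) were left out. The 20540 probes above the blank mean by 2 SD on at least 3 arrays were tested with limma 3.58.1 in R 4.3.3 (lmFit, eBayes, two-sided, Benjamini-Hochberg over all probes, threshold 0.05), Cre against control without a block. The script was tested on simulated data. The probe with the highest mean stood for a gene. The number of arrays limits the precision. Whether replicates are separate cultures is not stated; the spread behind each p-value is that of these samples and may be technical.

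Same-numbered arrays deviated together from their group means (r of 0.498, 0.425 and 0.436, against -0.373 to -0.167 between other numbers). Because each group was centred on its own mean, positive values for same numbers bring negative ones for other numbers. The 2 ranges are therefore not independent. The numbers were taken as pairs, and a blocked fit served as an alternative. Named genes were members at an unadjusted p under 0.05, the 2 largest differences each way, receptors of FGF2 and EGF, ERK feedback genes, the main ligands and every ligand above background on all arrays; relatives named to complete a family were added after their values were seen. Members and lists were chosen with earlier results of these data known. Alternatives covered the background, offset, scaling, filters, array weights, the block and leaving out each array.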

Additional observations from a re-analysis of the deposited data

How the results depend on the processing

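No named FGF or EGF gene passed the adjusted threshold under any of 16 alternatives (15 for Dusp6 and Erbb2), the count of probes past it was 0 in each, and the smallest adjusted p over all probes was 0.069, without control replicate 2. Chd7 was between -2.71 (plain subtraction and the authors' values) and -0.52 (local background), and between -1.24 and -0.95 with 1 array left out. Keeping the spots marked by the scanner, chosen after seeing the data, turned no sign.

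FGF and EGF probes at an unadjusted p under 0.05, 9 as reported, numbered 5 with median scaling (6.41%, against 2.99% of all probes), 16 with the replicate block and 4 to 9 with 1 array left out. In the authors' values they numbered 6 (7.69%, against 9.1% of all probes), a smaller share than over all probes. They numbered 11 with plain subtraction (14.1%, against 4.95%), 12 with the local background column (15.4%, against 6.27%) and 7 with an offset of 16 (8.97%, against 5.28%). The block changed no call at the adjusted threshold. Relative to all probes, the median of these probes was 0.05 with plain subtraction, 0.03 with an offset of 16 and 0.06 in the authors' values, where the median of all probes was -0.16. Pathway list genes at that level, 6 as reported, numbered 3 with median scaling and 1 to 7 with 1 array left out.

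Signs turned as follows, and the cause was not tested. With array weights: Erbb2 (0.002), Spry4 (0.01), Etv5 (-0.02), Lrig1 (0.07), Fgf14 (0.003), Fgf5 (-0.005) and Fgf8 (-0.003). With median scaling: Erbb2 (0.003). In the authors' values, which carry the shift of -0.16: Erbb2 (0.07), Spred2 (-0.06), Dusp5 (-0.11), Dusp6 (-0.07), Etv4 (-0.11), Etv5 (-0.10), Fgf18 (-0.01), Fgf20 (-0.01), Fgf23 (-0.01), Fgf5 (-0.06), Fgf6 (-0.02), Fgf8 (-0.07) and Nrg4 (-0.25). With the local background column: Dusp4 (-0.13), Dusp22 (0.26), Fgf7 (0.03), Fgf1 (-0.20), Erbb2 (0.04), Spry4 (0.20), Spred1 (0.07), Dusp5 (-0.09), Errfi1 (-0.23), Btc (0.04), Egf (0.13), Ereg (0.07), Fgf17 (0.15), Fgf21 (0.05) and Fgf23 (-0.02); there Hbegf read -2.16 and Dusp6 1.32. With 1 array left out, ranges that crossed 0 were: Dusp5 -0.01 to 0.10, Egfr -0.22 to 0.09, Erbb2 -0.02 to 0.02, Ereg -0.28 to 0.13, Etv4 -0.01 to 0.08, Etv5 -0.05 to 0.14, Fgf14 -0.08 to 0.01, Fgf15 -0.003 to 0.02, Fgf17 -0.05 to 0.02, Fgf18 -0.04 to 0.19, Fgf2 -0.06 to 0.19, Fgf20 -0.02 to 0.06, Fgf5 -0.01 to 0.02, Fgf7 -0.91 to 0.12, Fgf8 -0.05 to 0.19, Fgfr1 -0.37 to 0.13, Lrig1 -0.15 to 0.17, Nrg1 -0.10 to 0.31, Nrg4 -0.002 to 0.03, Spred1 -0.18 to 0.08, Spred2 -0.01 to 0.04 and Spry4 -0.04 to 0.01. Fgfr2, Fgfr3, Spry2, Dusp10, Dusp14, Nrg2 and Fgf13 kept their sign under all 16. So did Hbegf, Spry1, Etv1, Fgf12, Fgf16 and Tgfa, which did not stand at an unadjusted limma p under 0.05 as reported. Signal near the floor limits 20 of the 71 genes, with a mean under 6 log2 units, where small changes could be missed. Of these 20, 1 stood at an unadjusted limma p under 0.05 (5%, against 0.836% of all probes under 6), Nrg2 at 0.11.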
